A study of Mus musculus with 8 samples.

Results

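Genes of the lysosome were followed in mouse spleen RNA as a list of 40 genes, chosen by their symbols. The list held 9 cathepsins, 7 glycosidases, 8 other luminal hydrolases and cofactors, 9 membrane proteins, 6 subunits of the proton pump and the transcription factor Tfeb. All probes that the platform annotation assigns to these symbols were taken, 59 of the 25697 probes on the array. The whole array named 16593 genes. Of the 40 genes, 37 had a probe and 35 could be tested, on 52 probes. No probe is listed for Cd68, Npc1 or Atp6v0c, and the probes of Ctsl and Tfeb were too rarely above background to be tested.

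The spleens came from B6D2F1J mice aged 10 weeks, a hybrid of C57BL/6 and DBA/2, taken on day 14 of a lupus model in which donor cells engraft in a hybrid host and react against it. The titles name the donor as DBA on 4 arrays and as B10.D2, a strain that is not a parent of the hybrid, on 4 arrays. The comparison asks how spleen RNA differs with the donor strain. All 8 spleens came from engrafted hybrids, and no unengrafted hybrid serves as a baseline. The labels give neither the cells transferred nor whether each replicate was a different mouse, so a p-value speaks of the spread among these arrays only, some of which may be technical. The arrays were Illumina MouseRef-8 v2.0 BeadChips, in which labelled RNA bound by a probe is read as bead brightness, given here as normalized log2 intensity. Between 12601 and 13320 probes were above background per array. Spleen genes were present on all arrays, among them Spic of red pulp macrophages, at a mean log2 intensity of 10.57 in DBA donor and 10.58 in B10.D2 donor spleens.

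Replicate 4 of the B10.D2 donor stood apart from the other 7 arrays by genes of the exocrine pancreas, which lies beside the spleen. All 5 pancreas markers with a probe, of 6 listed, were highest on it. The amylase gene Amy2a5 stood at 10.09 there and at 4.42 to 4.71 on the other arrays, and the carboxypeptidase gene Cpa1 at 9.76 against 4.39 to 4.74. The protease genes Ctrb1, Prss2 and Cela1 stood at 8.62 against 4.58 to 5.05, 7.11 against 4.33 to 4.51 and 10.87 against 8.32 to 8.96. The mean of the 5 was 9.29 on this array, 5.35 to 5.42 on the other B10.D2 donor arrays and 5.37 to 5.52 on the DBA donor arrays. Amy2a5, Cpa1 and Prss2 were above background on no other array. Values without this array are therefore given for the counts and median differences of the members and for Ctsa, Lgmn, Npc2, Laptm5 and Atp6v1a. The part of pancreatic RNA in its lysosomal values was not tested.

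Lysosomes are acidic organelles in which cells break down proteins, sugars, lipids and nucleic acids taken up from outside or delivered by autophagy. The vacuolar proton pump acidifies the lumen, cathepsins and other hydrolases work at that low pH, and heavily glycosylated membrane proteins line the organelle. In the spleen, macrophages that clear aged red cells are rich in lysosomes, and cathepsins of antigen-presenting cells also process antigen and the invariant chain of MHC class II. The transcription factor TFEB and its relatives bind a short palindrome around CACGTG, known as the CLEAR element, near the starts of many lysosomal genes.

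The core of that element was looked for in the promoters of the members. These letters were not used to choose members, but the element is known from lysosomal genes. The shares below are therefore not independent of the list. RefSeq promoters (GRCm38.p6, from 250 bases before to 50 bases after a gene start) were listed for 34 of the 40 members. The 7 letters TCACGTG, searched on both strands, stood in the promoters of 10 of these 34 genes (29.4%), against 4.29% of all 27025 genes with a listed promoter. The symmetric 8 letters TCACGTGA, which contain the shorter word, stood in 6 of 34 members (17.6%) and in 1.12% of all genes. The inner 6 letters CACGTG alone stood in 11 of 34 members (32.4%) and in 8.09% of all genes. These words and the stretches shown were chosen after the values below were known, a match is a description of letters and not a measured binding site, and no test was run on the shares.

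The stretches below cover each role class, with 1 gene for the cathepsins, glycosidases, other hydrolases and pump and 2 for the membrane proteins. Each is read 5′ to 3′ along its gene, with each match in capitals. They come from Ctsa (chr2:164833740-164833784, plus strand), Glb1 (chr9:114401009-114401055, plus strand), Lgmn (chr12:102439116-102439162, minus strand), Lamp1 (chr8:13159079-13159160, plus strand), Mcoln1 (chr8:3500427-3500500, plus strand) and Atp6v1a (chr16:44139364-44139411, minus strand).
Ctsa: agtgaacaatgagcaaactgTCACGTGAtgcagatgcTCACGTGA
Glb1: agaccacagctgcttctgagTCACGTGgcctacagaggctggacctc
Lgmn: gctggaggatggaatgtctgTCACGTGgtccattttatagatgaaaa
Lamp1: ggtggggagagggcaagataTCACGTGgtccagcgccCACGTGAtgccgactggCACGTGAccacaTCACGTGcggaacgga
Mcoln1: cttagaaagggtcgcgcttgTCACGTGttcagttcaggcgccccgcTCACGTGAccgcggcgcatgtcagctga
Atp6v1a: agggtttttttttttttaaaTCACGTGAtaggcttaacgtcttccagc
Lamp1 carried 4 copies, which begin between 16 and 62 bases before its gene start. Ctsa and Mcoln1 carried 2 copies each, and the others 1. As the values below show, the genes with these letters did not move one way: the 10 members with TCACGTG had log2 differences of -0.22 (Lamp1) to 0.27 (Ctsa) with a median of 0.02, and the 20 tested members whose listed promoters lack it had -0.19 (Hexa) to 0.20 (Ctss) with a median of 0.0006.

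No lysosomal gene was called different between the donors. In bulk spleen RNA, fewer cells of a type and less RNA per cell cannot be told apart. Of the 35 tested members 0 passed at a limma adjusted p under 0.05, where 9 of 12950 tested probes did (0.0695%, 0.0618% with the DBA donor higher and 0.00772% with it lower), and the smallest adjusted p of a member was 0.29. At an unadjusted p under 0.05 there were 2 members, Lgmn higher and Lamp1 lower in DBA donor spleens, 5.71% of the list against 14.5% of all tested probes (7.09% higher and 7.40% lower). The ordinary per-probe statistic called 0 of all tested probes, so its 0 members say nothing about the list. Without replicate 4 of the B10.D2 donor, 0 members passed and 2 were at an unadjusted p under 0.05, Lamp1 and Laptm5, both lower (5.71%, against 18.2% of all probes in that fit). Of the 35, 19 had positive and 16 negative differences, with a median of 0.03 on the log2 scale against -0.0045 over all tested probes. Without that array the split was 17 to 18 and the median -0.0012. In 1 member, Lgmn, the groups did not overlap, higher in DBA donor spleens, 2.86% of the list. Over all tested probes 8.37% did not overlap, 4.15% with DBA donor arrays higher and 4.22% with them lower.

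On the brightest probe of each gene, the per-gene 95% confidence interval of 34 of the 35 members lay within a 1.5-fold change in either direction, a log2 difference of 0.58. The exception was Ctsa, whose interval reached 0.60. For all 35 it lay within a 2-fold change. Counted by probe, the intervals of 48 of 52 member probes lay within 1.5-fold, against 85.3% of all tested probes. The 4 wider ones were those of Ctsa and of dimmer probes of Gusb (to 0.84), Asah1 (to 0.80) and Cd63 (to 0.62). The median absolute difference was 0.08 for members and 0.12 for all tested probes, and the median SE was 0.10 and 0.12. Members were on the bright side of the array, with a median log2 intensity of 9.58 against 7.30, and 34 of the 35 were above background on all 8 arrays.

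**Figure D1:**
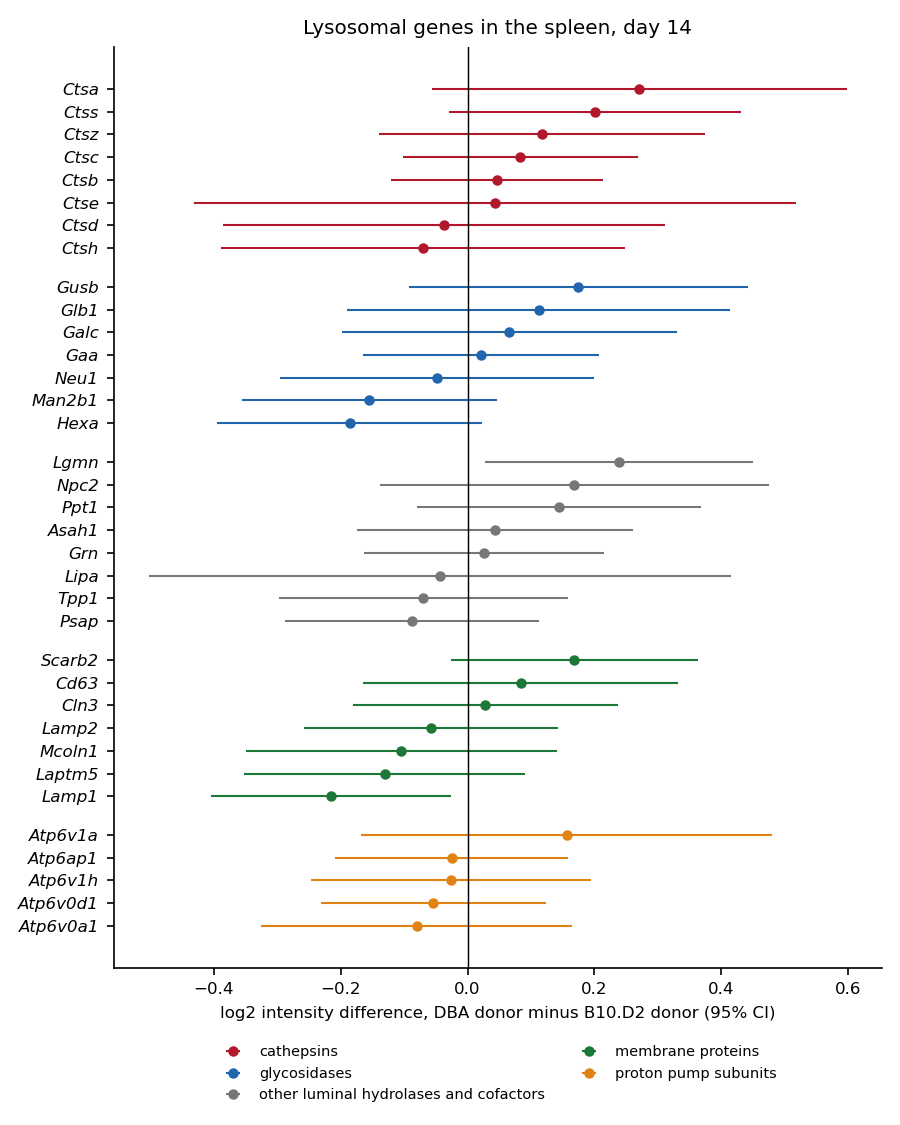
Log2 intensity difference (DBA donor minus B10.D2 donor, points) with 95% confidence intervals (bars) for the 35 tested lysosomal genes, coloured by role and ordered by difference within each role. The interval excludes 0 for Lgmn, on the positive side, and for Lamp1, on the negative side, and 34 intervals lie between -0.58 and 0.58.

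Cathepsins, the proteases of the lysosome, had positive differences in 6 of 8 tested members, with a median of 0.06 and a range of -0.07 to 0.27, and 0 passed. Ctss, the cathepsin S that trims the invariant chain in antigen-presenting cells, stood at 7.36, 7.10, 7.55 and 7.30 on DBA donor arrays 1 to 4 and 7.16, 7.16, 7.14 and 7.04 on B10.D2 donor arrays 1 to 4. The lowest DBA donor array lay within the B10.D2 donor range and the other 3 lay above it (log2 difference 0.20, SE 0.10, 95% confidence interval -0.03 to 0.43, limma adjusted p = 0.407). With 1 array left out in turn, the Ctss difference ran from 0.13 to 0.28. Ctsa, the carboxypeptidase that also protects beta-galactosidase and neuraminidase, stood at 7.78, 7.48, 7.70 and 7.59 on DBA donor arrays 1 to 4 and 7.29, 7.40, 7.77 and 7.02 on B10.D2 donor arrays 1 to 4. Its B10.D2 donor arrays spread from 7.02 to 7.77 and the highest of them lay among the DBA donor arrays (log2 difference 0.27, SE 0.15, 95% confidence interval -0.06 to 0.60, limma adjusted p = 0.433). Without replicate 4 of the B10.D2 donor, the lowest of all, the difference was 0.15. Ctsz, the carboxypeptidase cathepsin Z, stood at 9.19, 8.81, 9.30 and 9.002 on DBA donor arrays 1 to 4 and 9.08, 8.95, 8.85 and 8.96 on B10.D2 donor arrays 1 to 4. Its DBA donor arrays enclosed the B10.D2 donor range (log2 difference 0.12, SE 0.12).

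The remaining cathepsins differed by less than their SE, with Ctsc, the activator of granule serine proteases, closest to it (0.08, SE 0.08). Ctsb, an endopeptidase and one of the brightest of the list, differed by 0.05 with SDs of 0.04 in DBA donor and 0.02 in B10.D2 donor spleens. Ctsh, an aminopeptidase, differed by -0.07, and the aspartic protease cathepsin D gene Ctsd by -0.04 on a probe close to background (raw intensity 124.4 to 174.4). Ctse, the other aspartic protease, differed by 0.04 with an SE of 0.21, the widest of the tested members. The 1 probe of Ctsl was not above background on any array, which says nothing about the gene's RNA beyond that probe.

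Glycosidases, which remove sugars from glycoproteins and glycolipids, had positive differences in 4 of 7 members, with a median of 0.02 and a range of -0.19 to 0.17, and 0 passed. Hexa, the alpha chain of beta-hexosaminidase, stood at 9.46, 9.30, 9.43 and 9.54 on DBA donor arrays 1 to 4 and 9.48, 9.70, 9.73 and 9.56 on B10.D2 donor arrays 1 to 4. The highest DBA donor array lay just above the lowest B10.D2 donor array (log2 difference -0.19, SE 0.09, 95% confidence interval -0.39 to 0.02, limma adjusted p = 0.399). Man2b1, the lysosomal alpha-mannosidase, stood at 11.43, 11.13, 11.27 and 11.36 on DBA donor arrays 1 to 4 and 11.41, 11.53, 11.44 and 11.42 on B10.D2 donor arrays 1 to 4. Replicate 1 of the DBA donor lay within the B10.D2 donor range and the other 3 below it (log2 difference -0.15, SE 0.09, 95% confidence interval -0.36 to 0.05, limma adjusted p = 0.469).

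Gusb, beta-glucuronidase, was higher in the means of DBA donor spleens on each of its 3 tested probes, none past the test, and with median scaling and no quantile step the brightest was at -0.00049. The brightest probe stood at 10.72, 10.65, 10.81 and 10.53 on DBA donor arrays 1 to 4 and 10.82, 10.41, 10.31 and 10.48 on B10.D2 donor arrays 1 to 4, with replicate 1 of the B10.D2 donor the highest of all (log2 difference 0.17, SE 0.12, 95% confidence interval -0.09 to 0.44, limma adjusted p = 0.544). Its second probe differed by 0.24 (limma adjusted p = 0.318, unadjusted p = 0.0394). On its dimmest tested probe it stood at 7.44, 7.55, 7.58 and 6.93 on DBA donor arrays 1 to 4 and 7.06, 6.87, 7.09 and 6.58 on B10.D2 donor arrays 1 to 4, where 3 DBA donor arrays lay above all B10.D2 donor arrays and 1 lay among them (log2 difference 0.48, SE 0.16, limma adjusted p = 0.236, unadjusted p = 0.0147). The other glycosidases had small differences: 0.11 for beta-galactosidase Glb1, 0.02 for acid alpha-glucosidase Gaa, -0.05 for sialidase Neu1 and 0.07 for galactosylceramidase Galc. The Galc probe was above background on 4 of 4 DBA donor and 2 of 4 B10.D2 donor arrays.

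Among other luminal hydrolases and cofactors, 5 of 8 members had positive differences, with a median of 0.03, and 0 passed. Lgmn, the asparaginyl endopeptidase that matures cathepsins, stood at 10.96, 10.75, 10.78 and 10.80 on DBA donor arrays 1 to 4 and 10.64, 10.66, 10.65 and 10.39 on B10.D2 donor arrays 1 to 4. Every DBA donor array lay above every B10.D2 donor array, by 0.09 at the closest, and replicate 4 of the B10.D2 donor was set apart below (log2 difference 0.24, SE 0.10, 95% confidence interval 0.03 to 0.45, limma adjusted p = 0.294, unadjusted p = 0.0306). Without that replicate the log2 difference was 0.17 (limma adjusted p = 0.344, unadjusted p = 0.0867). Ppt1, the palmitoyl thioesterase, stood at 8.56, 8.39, 8.64 and 8.47 on DBA donor arrays 1 to 4 and 8.22, 8.39, 8.56 and 8.31 on B10.D2 donor arrays 1 to 4, with overlapping groups (log2 difference 0.14, SE 0.10, 95% confidence interval -0.08 to 0.37, limma adjusted p = 0.552). Npc2, the soluble carrier of cholesterol out of the lysosome, stood at 8.48, 8.07, 8.52 and 8.57 on DBA donor arrays 1 to 4 and 8.36, 8.10, 8.47 and 8.04 on B10.D2 donor arrays 1 to 4. Its groups overlapped over nearly their whole ranges (log2 difference 0.17, SE 0.14, and 0.10 without replicate 4 of the B10.D2 donor).

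The others of this class lay between -0.09 and 0.04. They were the saposin precursor Psap (-0.09), the tripeptidyl peptidase Tpp1 (-0.07), the acid lipase Lipa (-0.04), progranulin Grn (0.03) and acid ceramidase Asah1 (0.04). Lipa had an SE of 0.21 and ranged from 8.11 to 8.98 within the B10.D2 donor group alone. Asah1 gave different answers on its probes: the dimmer one differed by 0.42 (SE 0.17, limma adjusted p = 0.305, unadjusted p = 0.0338), and another was not above background on any array.

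Membrane proteins had positive differences in 3 of 7 tested members, with a median of -0.06, and 0 passed. Lamp1, a main glycoprotein of the lysosomal membrane, stood at 11.34, 11.13, 11.18 and 11.18 on DBA donor arrays 1 to 4 and 11.48, 11.45, 11.44 and 11.32 on B10.D2 donor arrays 1 to 4. DBA donor replicates 2, 3 and 4 lay below all B10.D2 donor arrays, and DBA donor replicate 1 lay just above the lowest of them (log2 difference -0.22, SE 0.09, 95% confidence interval -0.40 to -0.03, limma adjusted p = 0.29, unadjusted p = 0.0294). It passed in 1 alternative, with arrays scaled to a common median and no quantile step (-0.37, or -0.21 relative to the median of all tested probes, limma adjusted p = 0.0437). In that alternative 625 of the 12950 tested probes passed. Scarb2, the receptor that carries glucocerebrosidase to lysosomes, stood at 8.19, 8.10, 8.25 and 8.13 on DBA donor arrays 1 to 4 and 7.87, 8.03, 8.13 and 7.97 on B10.D2 donor arrays 1 to 4. The lowest DBA donor arrays overlapped the highest B10.D2 donor array (log2 difference 0.17, SE 0.09, 95% confidence interval -0.03 to 0.36, limma adjusted p = 0.414).

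Laptm5, a lysosomal transmembrane protein of blood cells, stood at 13.66, 13.52, 13.62 and 13.68 on DBA donor arrays 1 to 4 and 13.83, 13.89, 13.76 and 13.52 on B10.D2 donor arrays 1 to 4. Replicate 4 of the B10.D2 donor matched the lowest DBA donor array while its other 3 arrays lay above the whole DBA donor range (log2 difference -0.13, SE 0.10). Without that replicate the difference was -0.21 (limma adjusted p = 0.266). Differences of the rest were -0.10 for the calcium channel Mcoln1, 0.03 for Cln3, 0.08 for the tetraspanin Cd63 and -0.06 for Lamp2, which takes part in chaperone-mediated autophagy. The other probes of Cd63 differed by 0.23 and 0.22, on the same side. Lamp2 had 4 tested probes, annotated to 2 RefSeq transcripts, and they differed by -0.06, 0.0034, -0.07 and 0.24 from the brightest to the dimmest.

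Proton pump subunits had the narrowest range of the 5 classes, -0.08 to 0.16, with a median of -0.03 and 1 of 5 tested members positive, and 0 passed. The other classes had 7 or 8 tested members, and a range tends to narrow with fewer members. Atp6v1a, the catalytic subunit that binds ATP, stood at 7.64, 7.38, 7.76 and 7.95 on DBA donor arrays 1 to 4 and 7.80, 7.55, 7.54 and 7.22 on B10.D2 donor arrays 1 to 4. In each group 1 array stood far below the highest, and the groups overlapped (log2 difference 0.16, SE 0.15, 95% confidence interval -0.17 to 0.48, limma adjusted p = 0.668). Without replicate 4 of the B10.D2 donor the difference was 0.056. Atp6v0a1, a membrane subunit of the proton path, stood at 9.49, 9.74, 9.29 and 9.59 on DBA donor arrays 1 to 4 and 9.55, 9.68, 9.49 and 9.71 on B10.D2 donor arrays 1 to 4. Both its highest and its lowest array were of the DBA donor (log2 difference -0.08, SE 0.11).

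Atp6v0d1, a subunit that couples the membrane and cytosolic sectors, stood at 10.34, 10.44, 10.28 and 10.43 on DBA donor arrays 1 to 4 and 10.47, 10.41, 10.43 and 10.40 on B10.D2 donor arrays 1 to 4. The B10.D2 donor arrays fell within the DBA donor range but for replicate 1 (log2 difference -0.05, SE 0.08). The regulatory subunit Atp6v1h differed by -0.03 and the accessory protein Atp6ap1 by -0.02. Some dimmer probes had the other sign: Atp6v0a1 differed by 0.13 on its second probe, and Atp6v0d1 by -0.01, 0.12 and 0.11 on its others. With probes averaged per gene these genes were at 0.023 and 0.042.

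**Figure D2:**
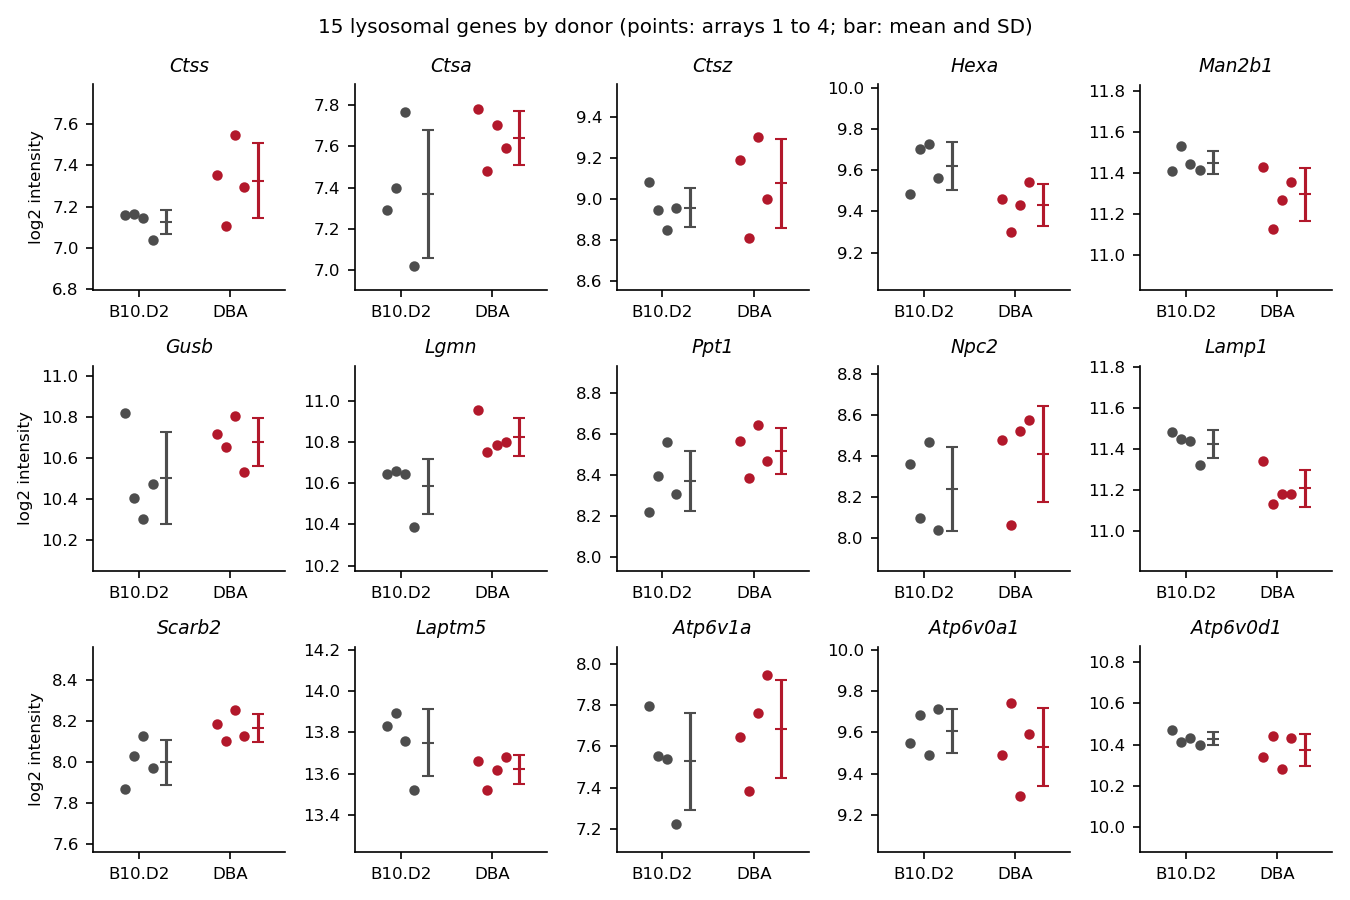
Log2 intensity by donor for 15 lysosomal genes, the 3 with the smallest unadjusted p in each role class; points are arrays 1 to 4 from left to right and bars the mean and SD, and every panel spans 1 log2 unit. Only in the Lgmn panel do the groups not overlap.

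Tfeb itself was near the limit of detection. Its brighter probe was above background on 2 of 4 DBA donor and 0 of 4 B10.D2 donor arrays, with mean log2 intensities of 4.94 and 4.84. The other was above background on 0 of 4 and 1 of 4, with means of 4.52 and 4.73. Neither allowed a fold to be stated.

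Set side by side, the cathepsins had a median difference of 0.06, the glycosidases of 0.02 and the pump subunits of -0.03, and with median scaling and no quantile step all 3 were negative (-0.07, -0.20 and -0.21), where the median of all tested probes was -0.16. Raw intensity moved with the donor: the array medians ran from 113.2 to 124.8 in DBA donor and from 126.4 to 142.1 in B10.D2 donor spleens, and its part in that shift was not tested. Relative to that shift they were 0.09, -0.04 and -0.05. A mean over different probes serves here only to compare arrays. The mean of the cathepsins minus the mean of the pump subunits, a contrast within each array, was -0.24 ± 0.10 (SD, n = 4) for DBA and -0.33 ± 0.07 (SD, n = 4) for B10.D2 donors. The ranges of -0.35 to -0.14 and -0.42 to -0.24 overlapped. Cathepsins minus glycosidases were at 0.61 ± 0.02 and 0.53 ± 0.06 (SD, n = 4), with ranges of 0.58 to 0.63 and 0.47 to 0.60 that also overlapped. Glycosidases minus pump subunits were at -0.85 in both groups. Without replicate 4 of the B10.D2 donor the median differences were 0.083 for cathepsins, -0.024 for glycosidases and -0.046 for pump subunits. No p is given for these means because the members were chosen with results known.

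Several tested probes were available for 9 genes. Of these, 4 had all their differences on the positive side (Gusb, Cd63, Ctsz and Asah1) and 5 had both signs (Ctsa, Ctsc, Lamp2, Atp6v0a1 and Atp6v0d1). From the brightest to the dimmest tested probe, Ctsa differed by 0.27, 0.01 and -0.20. Ctsc differed by 0.08, 0.02 and -0.0015. Over all 52 tested probes, 5 were at an unadjusted p under 0.05, 9.62% against 14.5% of the whole array: 2 of Gusb and 1 each of Asah1, Lgmn and Lamp1.

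**Figure D3:**
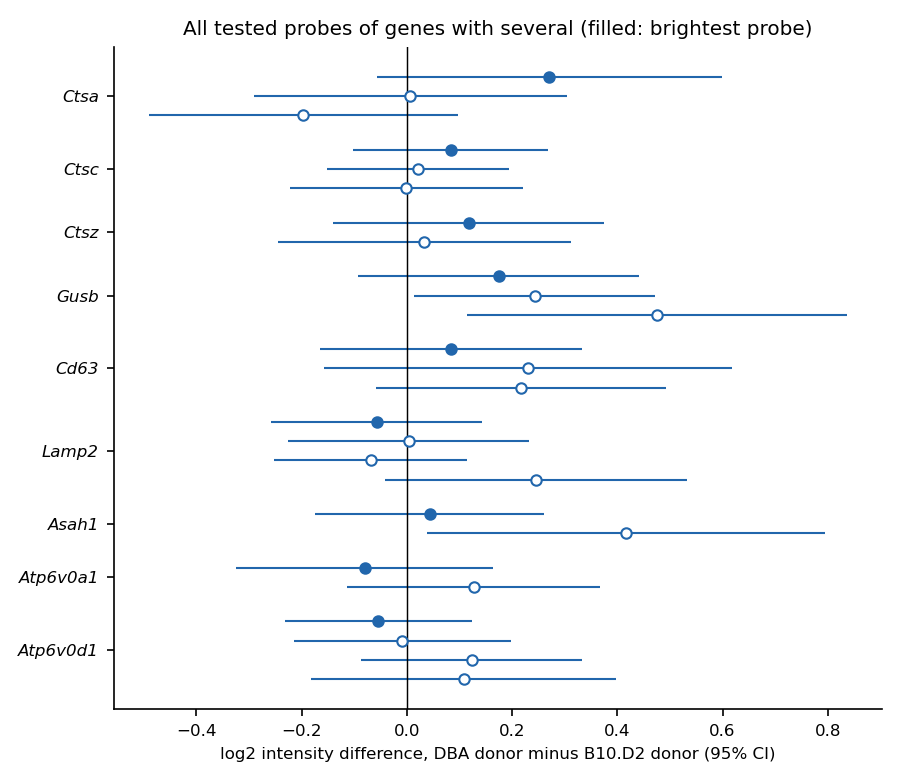
Log2 intensity difference (DBA donor minus B10.D2 donor, points) with 95% confidence intervals (bars) for each tested probe of the 9 genes with several, ordered from the brightest (filled) to the dimmest within each gene. The 3 Gusb probes lie at 0.17 to 0.48, while Ctsa, Ctsc, Lamp2, Atp6v0a1 and Atp6v0d1 have probes on both sides of 0.

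Arrays of the same donor differed in a way that many members shared. Replicate 4 of the B10.D2 donor was the lowest of its group for 19 of the 35 members (54.3%), against 35.8% of all tested probes. Replicate 2 of the DBA donor was the lowest of its group for 21 of 35 (60.0%), against 33.4% of all tested probes. The low values were spread over the classes: these arrays were lowest of their groups for 5 and 6 of the 8 other luminal hydrolases and cofactors, 4 and 5 of the 8 cathepsins, 4 and 4 of the 7 membrane proteins, 3 and 4 of the 7 glycosidases, and 3 and 2 of the 5 pump subunits. Both arrays at once were lowest for 15 members (42.9%, against 18.3% of all tested probes): Ctsa, Ctsc, Ctsh, Ctss, Gaa, Neu1, Asah1, Lgmn, Lipa, Npc2, Cd63, Lamp1, Laptm5, Atp6v1a and Atp6v1h. These 2 arrays were singled out after the values were seen. Without both, 0 members passed, and the median differences were 0.06 for cathepsins, -0.015 for glycosidases, -0.072 for pump subunits and 0.0049 for all members.

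Cell type markers moved with this split of the arrays, beside the pancreas markers that were high on replicate 4 of the B10.D2 donor alone. The mean of 5 erythroid markers was highest on these 2 arrays, at 12.05 and 11.90, against 11.07 to 11.47 on the other 6. The mean of 7 T cell markers was lowest on them, at 8.75 and 8.58, against 8.83 to 9.19, and that of 6 B cell markers was 9.73 and 9.51, against 9.67 to 10.07. Also lowest on them were the means of monocyte markers (7.95 and 7.76, against 7.97 to 8.14) and megakaryocyte and platelet markers (8.76 and 8.78, against 8.94 to 9.42). Stroma and endothelium markers were too (8.03 and 7.90, against 8.05 to 8.34). The neutrophil mean was lowest of its own donor group on both, at 9.91 and 9.61, but replicate 1 of the DBA donor stood at 9.87. NK cell, dendritic cell, and mast cell and basophil means were not lowest of their groups on both. The mean of 13 macrophage markers was 10.34 and 10.21, against 10.29 to 10.55. The mean of 6 plasma cell markers was lowest of all on replicate 4 of the B10.D2 donor, at 8.75 against 9.42 to 9.92, and stood at 9.64 on replicate 2 of the DBA donor. The erythroid marker Hba-a1 was the brightest probe on every array and is held at 1 value by the quantile step. The part of these cell types in the lysosomal values was not tested.

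**Figure D4:**
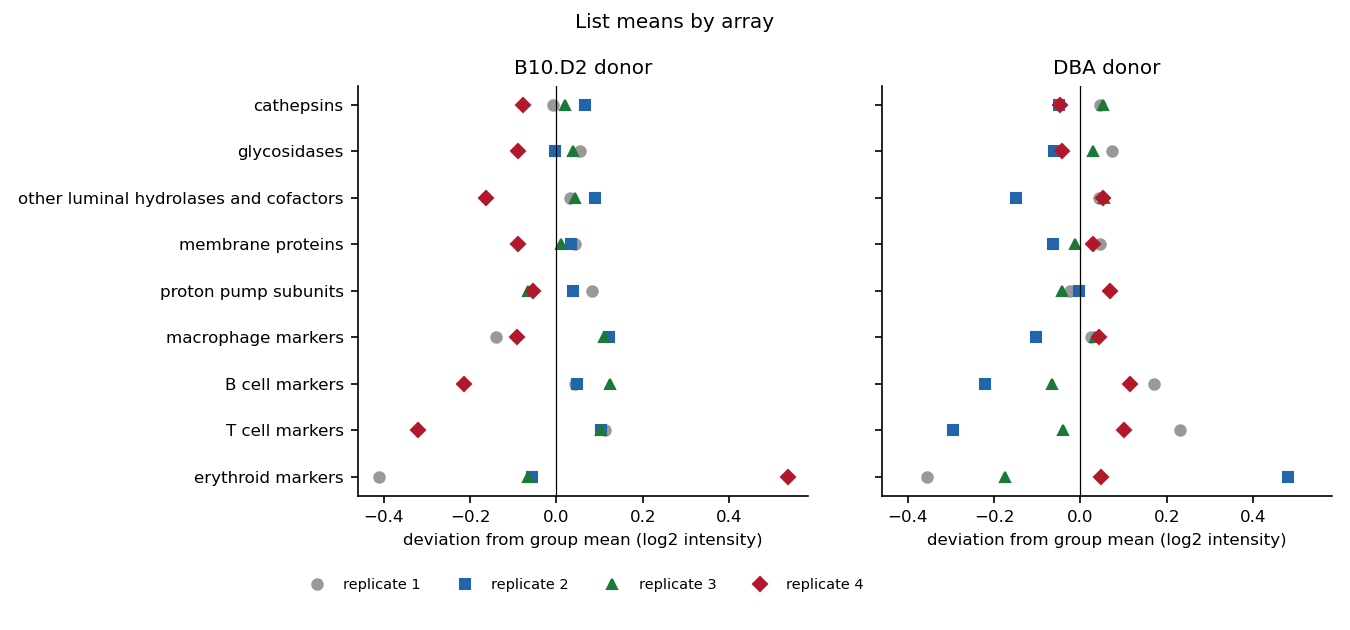
Mean log2 intensity of each lysosomal class and of 4 marker lists on each array, as the deviation from the mean of its own donor group; each symbol is a replicate. Replicate 4 of the B10.D2 donor and replicate 2 of the DBA donor lie to the right for erythroid markers and to the left for T cell markers and for the luminal hydrolases.

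Ctse was highest where Ctsh, Ctsa, Ctsc and Ctss were lowest. It stood at 12.01, 12.83, 12.15 and 12.24 on DBA donor arrays 1 to 4 and 11.87, 12.12, 12.29 and 12.78 on B10.D2 donor arrays 1 to 4, highest of its group on both of those arrays. Ctsh stood at 11.96, 11.52, 11.62 and 11.68 on DBA donor arrays 1 to 4 and 11.86, 11.96, 11.87 and 11.37 on B10.D2 donor arrays 1 to 4, lowest of its group on both. Only 3 of the 35 members were highest of their group on both arrays, Ctse, Atp6ap1 and Atp6v0a1 (8.57%, against 15.4% of all tested probes). Klf1, a transcription factor of red cell precursors, stood at 9.65, 11.09, 10.19 and 10.49 on DBA donor arrays 1 to 4 and 9.81, 10.11, 10.35 and 11.29 on B10.D2 donor arrays 1 to 4. Epor, the erythropoietin receptor, stood at 7.38, 8.55, 7.53 and 7.60 on DBA donor arrays 1 to 4 and 7.38, 7.87, 7.55 and 8.59 on B10.D2 donor arrays 1 to 4. Both were highest on the same arrays as Ctse, and the transferrin receptor gene Tfrc was too, at 12.75 and 12.38 against 11.43 to 11.84 on the other arrays. The erythroid marker Alas2 followed less closely. It stood at 12.97 and 12.84 on these arrays, highest of each group, but replicate 3 of the B10.D2 donor at 12.91 lay between them. Cathepsin E is known to occur in red cells of humans as well as in immune cells. This gene was singled out after its values were seen, and no test was run on the likeness.

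**Figure D5:**
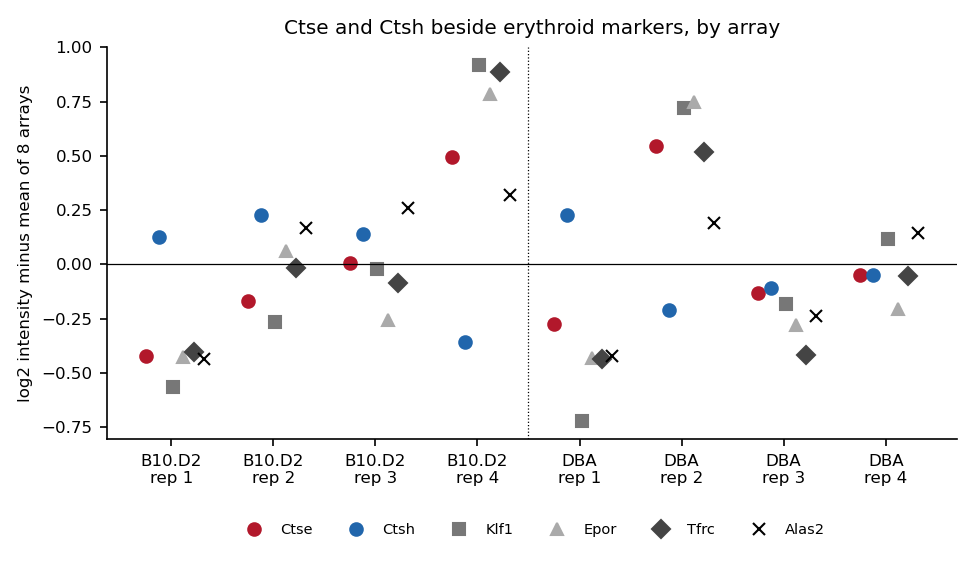
Log2 intensity minus the mean of the 8 arrays for Ctse, Ctsh and 4 erythroid markers, by array. Ctse and the markers Klf1, Epor and Tfrc are high on replicate 4 of the B10.D2 donor and replicate 2 of the DBA donor, where Ctsh is low. For Alas2, replicate 3 of the B10.D2 donor lies above replicate 2 of the DBA donor.

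A further 82 lysosomal genes, listed for their function, gave 63 tested genes, and 0 passed. Of these, 21 had positive and 42 negative differences, with a median of -0.07 against -0.0045 over all tested probes. At an unadjusted p under 0.05 there were 1 higher and 2 lower, 4.76% of the 63 against 14.5% of all tested probes (7.09% higher and 7.40% lower). The groups did not overlap for 5 of the 63 (7.94%, against 8.37% of all tested probes): Nagpa, Atp6v1d and Mtor with the DBA donor higher, and Gga1 and Gga3 with it lower. The share at that p was below that of the array as a whole, and the share without overlap was close to it. The 3 at that p belong to the 8 tested genes that sort enzymes to lysosomes. Nagpa, the enzyme that uncovers the mannose 6-phosphate tag, stood at 6.01, 5.99, 5.88 and 5.58 on DBA donor arrays 1 to 4 and 5.48, 5.28, 5.43 and 5.38 on B10.D2 donor arrays 1 to 4. Every DBA donor array lay above every B10.D2 donor array (log2 difference 0.47, SE 0.11, 95% confidence interval 0.23 to 0.71, limma adjusted p = 0.138). Gga1, an adaptor that carries the receptors of that tag, stood at 6.90, 6.81, 6.53 and 6.97 on DBA donor arrays 1 to 4 and 6.97, 7.25, 7.03 and 7.29 on B10.D2 donor arrays 1 to 4. The highest DBA donor array lay just under the lowest B10.D2 donor array, equal at 2 decimals (log2 difference -0.33, SE 0.12, 95% confidence interval -0.60 to -0.07, limma adjusted p = 0.255). A dimmer tested probe of Gga1 was at -0.41. Its relative Gga3 stood at 7.85, 7.74, 7.84 and 7.75 on DBA donor arrays 1 to 4 and 7.90, 8.23, 8.04 and 8.05 on B10.D2 donor arrays 1 to 4. These groups did not overlap either (log2 difference -0.26, SE 0.09, limma adjusted p = 0.252).

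On their brightest probes, no tested gene of the other lysosomal lists was at an unadjusted p under 0.05. The 83 tested probes of all further lists, the sorting genes included, held 7 at that p (8.43%, against 14.5% of all tested probes). Outside the sorting genes they were 1 dimmer probe of the sphingomyelinase gene Smpd1 and 1 of the pump accessory gene Atp6ap2. These were at 0.27, with groups that did not overlap, and at 0.38 (limma adjusted p = 0.273 and 0.288). The brightest probes of these genes were at -0.04 and 0.05. Further cathepsins were negative in 4 of 4, with Ctso at -0.29 and Ctsf at -0.26. Further glycosidases and sulfatases were negative in 7 of 8, with beta-mannosidase Manba at -0.16 and iduronidase Idua at -0.15. Further lipases, phosphatases, nucleases and cofactors were also negative in 7 of 8, with the nuclease Dnase2a and the ganglioside activator Gm2a both at -0.14. Further membrane proteins were negative in 9 of 15, with the cation channel Tpcn2 at -0.20 and the intramembrane protease Sppl2a at 0.18. Further pump subunits were negative in 6 of 11, with Atp6v0b at -0.16 and Atp6v1d at 0.14. Regulators were negative in 3 of 6, with the adaptor Lamtor1 at -0.16 and the kinase Mtor at 0.12. Of the cathepsin inhibitors Cst7 differed by 0.19 and Cst3 by -0.13. With median scaling and no quantile step 2 genes passed, Atp6v0b and Gga3, where 625 of the 12950 tested probes did. The median of all tested probes was -0.16 there.

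Macrophages are a known source of lysosomal RNA in the spleen. Of 14 macrophage markers 13 were tested and 0 passed, with 4 positive and 9 negative differences and a median of -0.06. At an unadjusted p under 0.05 there were 3, all lower (23.1% of the 13, against 14.5% of all tested probes, 7.40% lower), among them the sialic acid receptor Siglec1 at -0.52 and the scavenger receptor Marco at -0.40 (limma adjusted p = 0.126 and 0.201). The mean of the list ran from 10.21 to 10.36 over DBA donor and from 10.29 to 10.55 over B10.D2 donor arrays. Other lists also differed in their medians between donors. The 5 tested monocyte markers (median -0.10), the 7 T cell markers (-0.22) and the 6 B cell markers (-0.19) were all negative. At an unadjusted p under 0.05 were 0, 2 and 1 of them. The 3 tested dendritic cell markers were negative too (-0.05, 1 at that p). Stroma and endothelium markers were negative in 5 of 7 (-0.14, 2 at that p) and NK cell markers in 3 of 4 (-0.17, 1 at that p). Of 6 plasma cell markers 5 were positive (median 0.38, 2 at an unadjusted p under 0.05). Their mean was 8.75 on replicate 4 of the B10.D2 donor, the array high in pancreas markers. It was 9.42 to 9.92 on the other B10.D2 donor arrays and 9.54 to 9.91 on DBA donor arrays. Marker medians without that array are not given. The 7 mast cell and basophil markers were all positive (median 0.50, 5 at that p). Of these 7, 1 passed, where 0.0695% of all tested probes did. The part of these cells in the lysosomal differences was not tested.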

How the data were processed

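Spleen RNA of 8 samples, 4 per donor strain by their titles, was hybridised to 1 Illumina BeadChip each. Bead intensity per probe, linear and not normalized, is what the first deposited table holds, per the file headers. Beside each intensity it lists a detection p-value, per the file headers, which rates the probe against negative controls. The authors' other deposited table has further processed intensity, on what its values show to be a linear scale (lowest value -16.5, array medians 13.9 to 14.0). It ranked probes as the first table did (rank correlation of at least 0.999995). Its negative values and near-equal medians show that some level was subtracted and that arrays were brought close together. The methods of background handling and normalization stay unknown. GenomeStudio is named in the submitters' processing notes. Slide, scan batch and probe build are not given in these sources.

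Normexp correction from the detection p-values (offset 16), quantile normalization and log2 were applied with neqc of limma 3.58.1 in R 4.3.3. An offset understates the differences of dim probes. The annotation gave 1 gene symbol to 23978 of 25697 probes, several to 0 and none to 1719. The 12950 probes tested had a detection p under 0.05 on 4 or more arrays of any group. Differences (DBA donor minus B10.D2 donor) were fitted with limma (lmFit, eBayes, two-sided) and adjusted by Benjamini-Hochberg over all of them. The brightest tested probe stands for a gene. Errors are the SE of the fit or the SD over arrays, and the number of arrays limits precision. Arrays of a group correlated at 0.980 to 0.994, so none was a copy of another. Lists, members and tests were chosen with earlier results of these data known. The rule for named genes took the 3 members with the smallest unadjusted p in each role class, members that passed, Tfeb, and genes whose probes have opposite signs, and of further lists the 2 with the smallest p. Array values of Ctse, Ctsh and the dimmest Gusb probe, and Gga1, Smpd1, Atp6ap2, Siglec1, Marco, Spic and the erythroid and pancreas genes, were added after their values were seen. The fit was tested on simulated data. Alternatives changed the background correction, offset, scaling, source table, filter, probe summary, variance model, array weights, block, statistic and each array. Figures used matplotlib 3.10.9.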

Additional observations from a re-analysis of the deposited data

Results flagged for a closer look

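Dixon's gap test picked out 11 of 66 sets of 4 same-donor arrays. By chance about 1 in 20 would be picked if sets were independent and chosen before their values were seen. Here some sets share genes and the pancreas sets were added afterwards, so the count cannot be set against that rate. The share in brackets divides the distance from the outlying array to its neighbour by the span of the 4 values. Replicate 4 of the B10.D2 donor was lowest for Ctss (7.04 against 7.14 to 7.16, share 0.863), for Lgmn (10.39 against 10.64 to 10.66, share 0.935) and for the mean of T cell markers (8.75 against 9.18 to 9.19, share 0.980). Replicate 2 of the DBA donor was lowest for the mean of the other luminal hydrolases and cofactors (9.78 against 9.97 to 9.99, share 0.933) and for the mean of macrophage markers (10.21 against 10.34 to 10.36, share 0.881). Replicate 4 of the B10.D2 donor was highest for 5 pancreas genes, which were added to this screen after their values were seen: Amy2a5 (10.09 against 4.50 to 4.71, share 0.963), Cpa1 (9.76 against 4.45 to 4.49, share 0.992), Ctrb1 (8.62 against 4.83 to 4.92, share 0.976), Prss2 (7.11 against 4.33 to 4.42, share 0.970) and Cela1 (10.87 against 8.32 to 8.67, share 0.863). Replicate 1 of the DBA donor was highest for Amy2a5 (4.70 against 4.42 to 4.44, share 0.920), where the probe was above background on 0 of 4 arrays.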

How the results depend on the processing

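The count of 0 members past the threshold held in 19 of 20 alternatives. Among them were all 8 losses of 1 array (0 to 0) and the loss of both low arrays, chosen after seeing the data. In 6 of the 20 no probe of the array passed, so 0 members was fixed there. In the main fit 9 of 12950 probes did, so a count of 0 in a short list says little about it. Over all fits 1 to 7 members were at an unadjusted p under 0.05. The share of all tested probes at that p was 14.5% in the main fit and 18.2% without replicate 4 of the B10.D2 donor. It is not given for the other fits, so the 7 cannot be read as a result about the members. Further lysosomal genes gave 0 in 19 of 20 (0 to 0 with 1 array left out). Median scaling without the quantile step gave 1 member and 2 further genes, with 625 probes in all, and moved the medians of cathepsins to -0.071, glycosidases to -0.20, pump subunits to -0.21 and all members to -0.11; the median of all tested probes was -0.16 there. It also turned Ctss (-0.0011), Ctsz (-0.097), Gusb (-0.00049), Ppt1 (-0.078), Npc2 (-0.057), Scarb2 (-0.056) and Atp6v1a (-0.052); the cause was not tested. Probes averaged per gene turned Atp6v0a1 (0.023) and Atp6v0d1 (0.042), whose probes have both signs. These 9 were the only reversals in 300 refits of the 15 named members. With 1 array left out the medians ran from 0.05 to 0.09 for cathepsins, -0.02 to 0.06 for glycosidases, -0.06 to -0.0092 for pump subunits and -0.0012 to 0.03 for all members. The count over all probes was 9, or 5 with the authors' value table, 38 with array weights, 0 with no filter, with the stricter filter and with the ordinary statistic, and 0 to 11 with 1 array left out; the cause was not tested. With the replicate block 0 members and 7 probes passed; same-numbered arrays did not deviate together (correlations of -0.35 to 0.34), and 1 of 4 DBA donor and 1 of 4 B10.D2 donor arrays correlated best with their own number. Dim probes, Ctsd, Galc, Mcoln1 and Tfeb among them, limit what can be seen.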
